A study of Canis lupus familiaris with 33 samples.

Results

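The genes of the mitochondrial ribosome were followed across lymph nodes of dogs with diffuse large B-cell lymphoma (DLBCL), which arises from mature B cells, and of healthy dogs. Members were the probesets of the Affymetrix Canine Genome 2.0 array whose single gene symbol begins with MRPL or MRPS and a digit. They numbered 162 probesets of 73 genes, out of 43035 probesets and 15115 genes with a symbol on the array. For each gene the probeset with the highest mean over all arrays was taken, and 1 further probeset that carries a member's symbol together with another gene's was left out. DLBCL nodes were biopsied from 16 dogs that had received no chemotherapy (naïve) and from 7 that had relapsed after chemotherapy. Of the relapsed samples, 3, 13, 18 and 24 are labelled with CHOP (cyclophosphamide, doxorubicin, vincristine and prednisone), sample 18 also with a later protocol, and samples 4, 9 and 12 with other protocols. The labelled age was 2.7 to 13.3 years in naïve dogs and 6.4 to 11.8 years in relapsed dogs, which were sampled 13 to 672 days after their last treatment. Healthy nodes came from dogs euthanised for conditions other than lymphoma, and their ages, breeds and sexes are not labelled. The DLBCL dogs were of several breeds, and a biopsy of a node holds every cell type in it.

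Mitochondria carry their own ribosome, which translates only a few messages, all for core subunits of the respiratory chain and ATP synthase. Its ribosomal RNAs are transcribed from mitochondrial DNA, whereas every one of its proteins is encoded in the nucleus, made in the cytosol and imported. The small subunit, built mostly from MRPS proteins, binds the message and reads its codons. The large subunit, built mostly from MRPL proteins, joins the amino acids and extrudes the chain at the inner membrane. Some of these proteins descend from bacterial ribosomal proteins and sit in the RNA core, and others are found only in mitochondria and lie mostly on the outside. B cells that enter the cell cycle enlarge their mitochondria, and raised mitochondrial translation has been reported in a respiratory subtype of human DLBCL.

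Expression was deposited as log2 values, on which a difference of 1 is a doubling. The 33 arrays, 23 of DLBCL and 10 of healthy nodes, had medians between 6.85 and 6.97. By the case numbers, 4 healthy arrays are of 1 animal, healthy dog 1, and DLBCL samples 11 (naïve) and 12 (relapsed) are of another, so arrays of 1 dog were averaged to give 22 DLBCL and 7 healthy dogs. Naïve sample 5 stood against its label. It lay below every other DLBCL dog in 8 of 9 B-cell genes, with MS4A1 (CD20) at 8.51 against 12.57 to 13.86 in the other DLBCL dogs. The main counts are also given without it, as are the ranges it sets in the means of gene lists. The RNA of DLBCL nodes had an integrity number (RIN) of 9.64 ± 0.294 (SD over 22 dogs), and that of healthy nodes 7.11 ± 1.12 (SD over 7 dogs), of which healthy dog 1 had 8.8 to 9.4 and the others 5.8 to 7.7. Probeset brightness depends on the probes as well as on the message, so levels of different genes were not compared, and the dimmest member, MRPS34, averaged 6.43, above the 17 tag controls at 2.79 to 4.56.

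Mitochondrial ribosomal protein genes were mostly higher in DLBCL nodes, by small steps. The mean log2 level of the 73 genes was 11.35 ± 0.15 in DLBCL (SD over 22 dogs) and 11.03 ± 0.06 in healthy nodes (SD over 7 dogs). Of the 73 genes, 46 were higher in DLBCL, 1 was lower and 26 were not called at an adjusted p under 0.05 (limma, p-values adjusted by Benjamini-Hochberg across every probeset). The 46 make up 63% of the members, and the array as a whole had 19.9% of genes higher and 14.9% lower by the same rule. With RIN, which differed between the groups, as a covariate, 1 member was called higher and 0 lower in limma, beside 0.668% and 1.19% of all genes. At an unadjusted p under 0.05 in that limma fit there were 23 members, beside 16.3% of all genes. Its median difference was 0.33, with a median SE of 0.21 in place of 0.10. Without the covariate, the median difference of the members was 0.33 (quartiles 0.17 and 0.46), beside 0.06 over all genes. Of the members, 68 of 73 lay above 0, as did 60.2% of all genes. No member reached a 2-fold difference and 8 exceeded 1.5-fold. After centring each array on its cytosolic ribosomal proteins, 35 members were higher and 1 lower, with a median of 0.24, and the split of all genes moved to 1796 higher and 2939 lower, against 3013 and 2245 as deposited. In bulk tissue a change in the share of cells that carry a message and a change in the message per cell cannot be told apart.

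**Figure D1:**
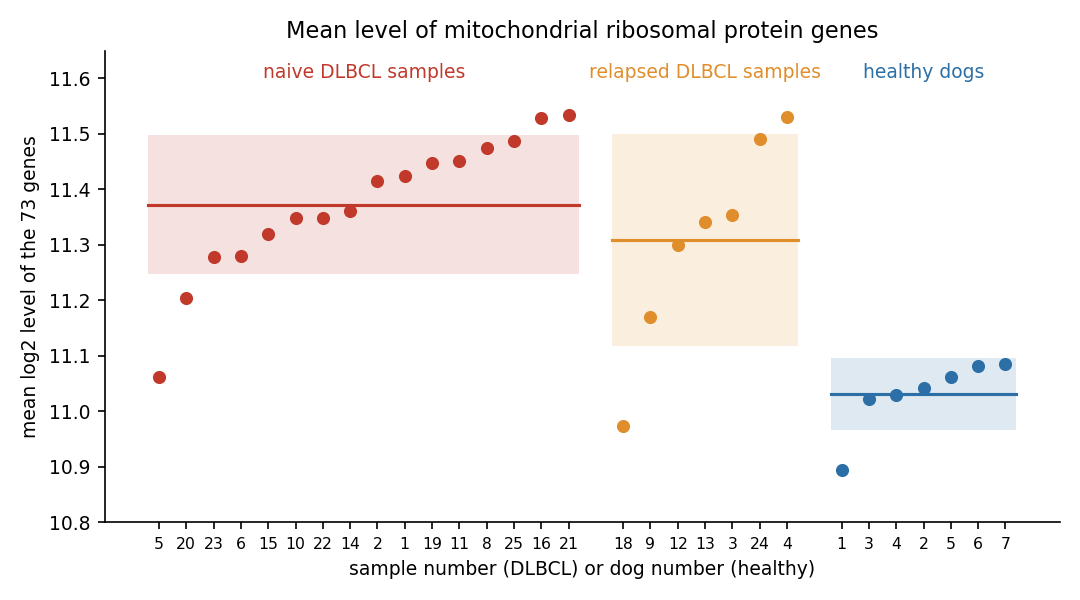
Mean log2 level of the 73 genes in each naïve and relapsed DLBCL sample and in each healthy dog, sorted within groups, with lines at the group means and bands of 1 SD. Samples 5 and 18 are the DLBCL samples that lie below the highest healthy dog (11.08).

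By sample, the mean of the members ran from 10.97 to 11.53 in DLBCL dogs and from 10.90 to 11.08 in healthy dogs. Of the 22 DLBCL dogs, 20 lay above all healthy dogs, and the exceptions were relapsed sample 18, at 10.97, and naïve sample 5, at 11.06. Sample 18 was the lowest DLBCL sample in 28 of the 73 genes and sample 5 in 18, out of 23 samples. The highest means, all at 11.53, were those of naïve samples 16 and 21 and relapsed sample 4. Without sample 5 the fit called 51 members higher and 1 lower, with 21.2% of all genes higher. Without samples 5 and 18 it called 54 members higher and 1 lower, with 22.6% of all genes higher.

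Genes of both subunits were higher in DLBCL, beside 19.9% of all genes higher and 14.9% lower by the same rule. Of the small-subunit genes with a bacterial counterpart, 10 of 13 were higher, with a median difference of 0.41, and of the mitochondria-specific small-subunit genes, 5 of 10 were higher and 1 lower, with a median of 0.26. In the large subunit, 20 of 29 genes with a bacterial counterpart were higher, at a median of 0.33. Of the mitochondria-specific large-subunit genes, 10 of 20 were higher, at a median of 0.25, and these include MRPS18A and MRPS30 despite their names. Differences between these medians were not tested. MRPS36, which in human cells has been assigned to the alpha-ketoglutarate dehydrogenase complex rather than to the ribosome, stood in neither subunit list.

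**Figure D2:**
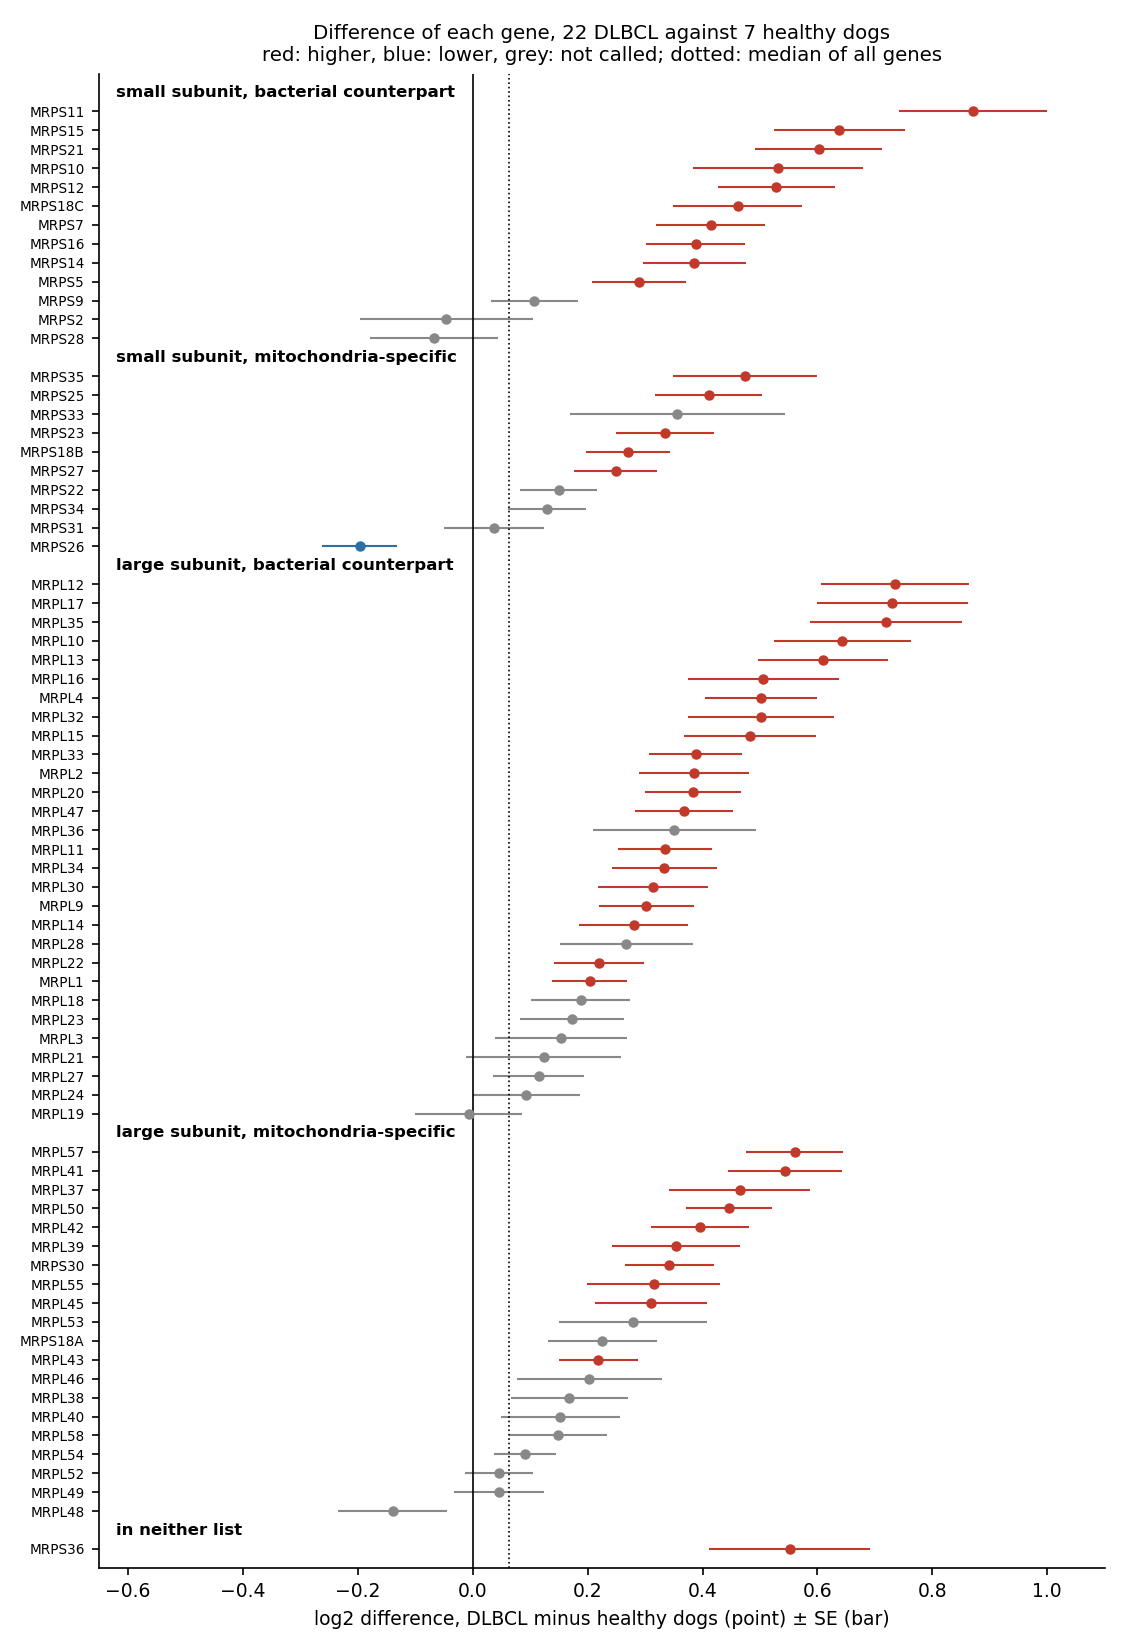
Log2 difference (DLBCL minus healthy dogs) of each of the 73 genes, with its SE, ordered within each subunit list. Called genes are coloured, and 1 of them, MRPS26 at -0.20, lies on the lower side.

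MRPS11, the counterpart of a protein of the bacterial small-subunit platform near the exit site for messenger RNA, had the largest difference of all members. Its log2 level ran from 10.30 over a median of 11.16 to 11.50 in DLBCL dogs and from 9.95 over 10.16 to 10.48 in healthy dogs. All but 2 of the 22 DLBCL dogs were above every healthy dog, and the difference was 0.87 (SE 0.13), or 1.83-fold, with an adjusted p of 7.4e-06 in limma. MRPS15, the counterpart of a bacterial protein that binds early to the small-subunit RNA, had levels of 10.76, 11.51 and 11.91 (lowest, median and highest) in DLBCL dogs and of 10.60, 10.87 and 10.98 in healthy dogs. It too was above all healthy dogs in 20 of 22 DLBCL dogs, with samples 18 and 5 lowest, at a difference of 0.64 (SE 0.11, adjusted p = 7.9e-05, limma). MRPS21 had levels of 12.36, 12.93 and 13.45 in DLBCL dogs and of 12.04, 12.33 and 12.54 in healthy dogs. Only 1 DLBCL dog overlapped the healthy ones here, naïve sample 22, and the difference was 0.60 (SE 0.11). MRPS36 stood at 10.23, 10.89 and 11.98 in DLBCL dogs and at 9.85, 10.37 and 10.63 in healthy dogs, a difference of 0.55 (SE 0.14, adjusted p = 0.0030, limma), and naïve sample 21 was far above the rest. MRPS10, whose spread was among the largest, had levels of 7.29, 8.24 and 8.67 in DLBCL dogs and of 7.10, 7.82 and 8.12 in healthy dogs. Its groups overlapped in 7 DLBCL dogs, and the difference was 0.53 (SE 0.15, adjusted p = 0.0064, limma).

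In the large subunit, the stalk proteins MRPL12 and MRPL10 were among the genes that rose most. MRPL12 recruits translation factors to the ribosome and, in human cells, also binds the mitochondrial RNA polymerase. Its log2 level was 11.70, 12.64 and 13.06 (lowest, median and highest) in DLBCL dogs and 11.58, 11.92 and 12.19 in healthy dogs. Every DLBCL dog but samples 5 and 18 lay above all healthy dogs, and the difference was 0.74 (SE 0.13), or 1.67-fold, with an adjusted p of 6.2e-05 in limma. MRPL10, which anchors MRPL12 to the ribosome, had levels of 7.77, 8.45 and 8.86 in DLBCL dogs and of 7.56, 7.75 and 8.05 in healthy dogs, a difference of 0.64 (SE 0.12). Here 20 of 22 DLBCL dogs were above all healthy dogs.

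Other large-subunit genes with bacterial counterparts moved by similar amounts. MRPL17, a protein near the exit of the peptide tunnel, had levels of 9.38, 10.20 and 10.77 in DLBCL dogs and of 9.32, 9.38 and 9.75 in healthy dogs, at a difference of 0.73 (SE 0.13, adjusted p = 8.9e-05, limma). Sample 18, at 9.38, was level with the median healthy dog, and its nearest neighbour among the tumours was naïve sample 6 at 9.71. MRPL35, a large-subunit core protein, at 10.32, 11.18 and 11.67 in DLBCL dogs and 10.29, 10.52 and 10.83 in healthy dogs, differed by 0.72 (SE 0.13). MRPL13, at 11.59, 12.21 and 12.65 in DLBCL dogs and 11.23, 11.64 and 11.76 in healthy dogs, differed by 0.61 (SE 0.11). For MRPL13, naïve sample 20, at 11.59, was the 1 DLBCL dog within the healthy range.

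Among genes of the large subunit found only in mitochondria, MRPL57 and MRPL41 rose most and MRPL50 separated the groups. MRPL57 had levels of 11.92, 12.57 and 12.80 in DLBCL dogs and of 11.73, 12.00 and 12.14 in healthy dogs, at a difference of 0.56 (SE 0.08, adjusted p = 9.1e-06, limma), with samples 5 and 18 overlapping the healthy range. MRPL50 had levels of 10.51, 10.89 and 11.13 in DLBCL dogs and of 10.33, 10.40 and 10.50 in healthy dogs. It was the 1 member without overlap between the groups, against 0.549% of all genes that lay wholly above the healthy dogs, although the gap between sample 18 (10.51) and the highest healthy dog (10.50) was narrow. Its difference was 0.45 (SE 0.07, adjusted p = 3.6e-05, limma). A second MRPL50 probeset gave 0.25 (SE 0.11, adjusted p = 0.066, limma) and was not called. MRPL41, reported in human cells to bind the survival protein BCL2, had levels of 8.40, 8.88 and 9.22 in DLBCL dogs and of 7.93, 8.33 and 8.62 in healthy dogs, a difference of 0.54 (SE 0.10).

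**Figure D3:**
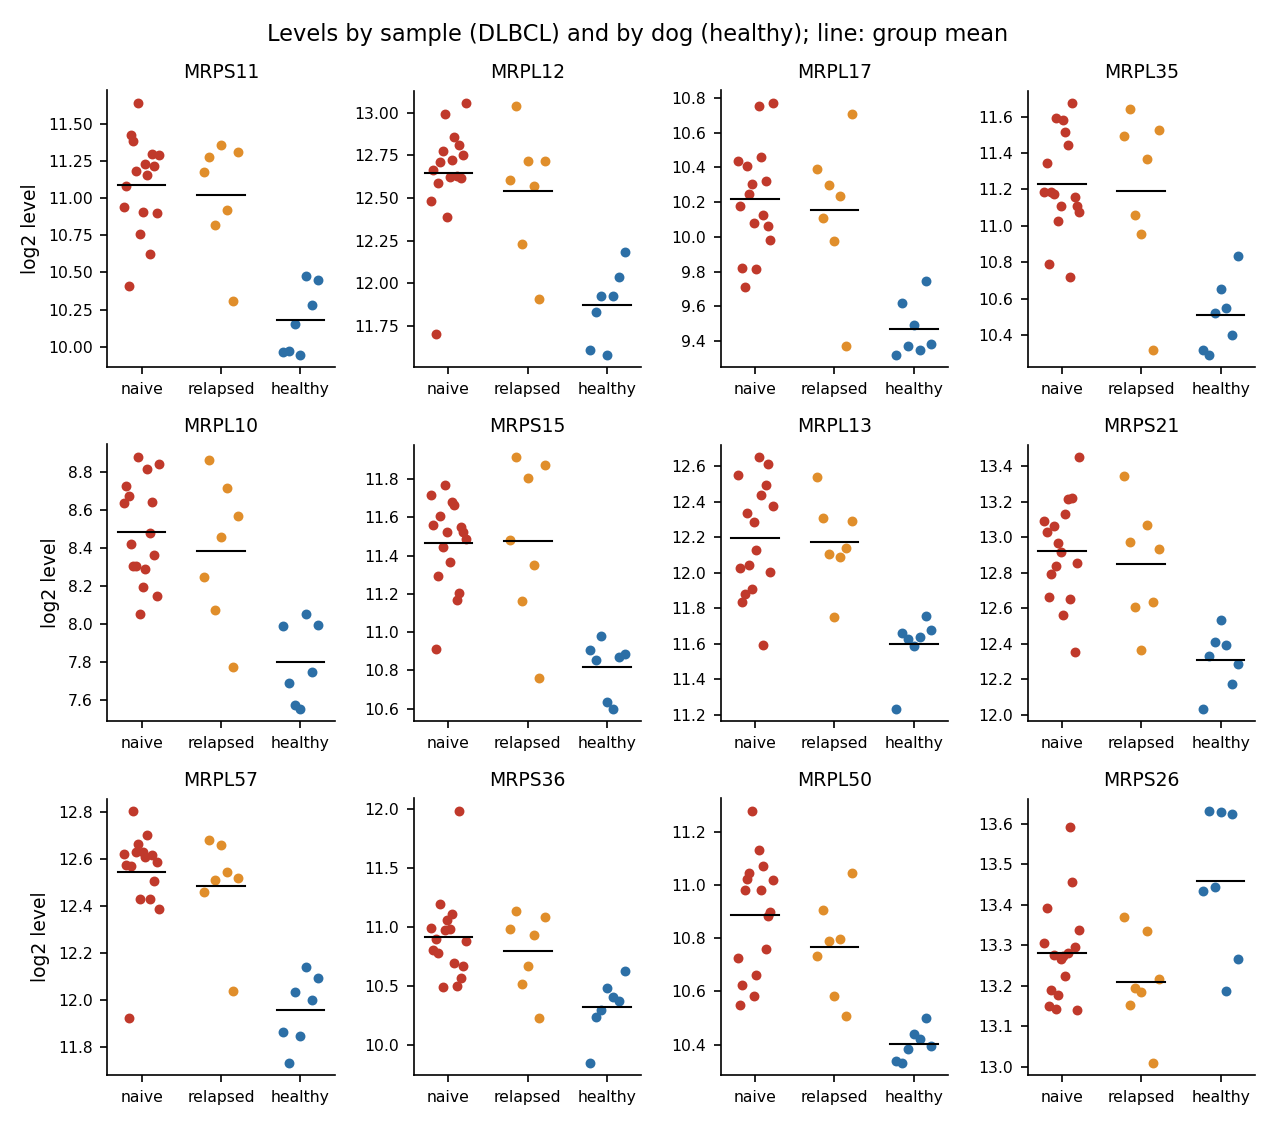
Log2 level of the 10 genes with the largest rise, of MRPL50 and of MRPS26 in each naïve and relapsed DLBCL sample and in each healthy dog, with group means as lines. MRPL50 has no overlap between DLBCL samples and healthy dogs, and MRPS26 runs lower in DLBCL.

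MRPS26, a mitochondria-specific protein of the small subunit, was the only member called lower. Its log2 level was 13.01, 13.27 and 13.59 (lowest, median and highest) in DLBCL dogs and 13.19, 13.44 and 13.63 in healthy dogs. The ranges overlapped widely, 6 of 22 DLBCL dogs lay below all healthy dogs, and the difference was -0.20 (SE 0.07, adjusted p = 0.020, limma). The call was lost without healthy dog 2, 4 or 6. Its 2 probesets were called in opposite directions: the second, which is dimmer at a mean of 9.26 over all arrays, was higher in DLBCL by 0.43 (SE 0.12, adjusted p = 0.0062, limma). MRPS26 was the only gene of the family with such a conflict.

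Several members were not called in either direction. MRPL52 had 12.20, 12.56 and 12.82 in DLBCL dogs and 12.45, 12.49 and 12.59 in healthy dogs, a difference of 0.05 (SE 0.06). The healthy range lay inside that of DLBCL dogs, of which 10 were above and 6 below it. MRPL54 differed by 0.09 (SE 0.05), MRPS34 by 0.13 (SE 0.07) and MRPS28 by -0.07 (SE 0.11), none of them called. MRPS28, a small-subunit protein, was lowest in naïve sample 5, at 11.37, and highest in naïve sample 10, at 12.54, while healthy dogs stayed between 12.07 and 12.34. MRPL18 (0.19, SE 0.09), MRPL28 (0.27, SE 0.12) and MRPL36 (0.35, SE 0.14) were also not called, at adjusted p of 0.098, 0.078 and 0.057 in limma. MRPL36, the counterpart of a very small protein of the bacterial large subunit, ran from 11.19 to 12.74 in DLBCL dogs and from 11.55 to 11.98 in healthy dogs, and naïve sample 20 was lowest.

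MRPS33 had the largest spread among tumours of any member. Its level was 7.07, 7.87 and 8.72 in DLBCL dogs and 7.45, 7.52 and 7.87 in healthy dogs, with an SD of 0.496 (n = 22 dogs) in DLBCL and 0.179 (n = 7 dogs) in healthy nodes. DLBCL dogs lay on both sides of the healthy range, 11 above and 3 below, and the difference of 0.36 (SE 0.19) was not called. None of its 5 probesets was called, with differences of -0.13 to 0.45. At the other end, MRPL54, MRPS26 and MRPL52 had the smallest spread in DLBCL dogs, at SDs of 0.105, 0.125 and 0.137 (n = 22 dogs).

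Of the 73 genes, 58 had more than 1 probeset. Over the 162 probesets, 106 were higher in DLBCL, 1 was lower and 55 were not called, beside 19% of all probesets higher and 13.6% lower. In 26 of the 58 genes every probeset was higher, and in 54 at least 1 was, a count that grows with the number of probesets. These counts were not made over all genes with several probesets, so they have no background here. The choice of the brightest probeset was not always the choice of the most changed one: in 18 genes the brightest was not called while another was higher, and in 9 genes the brightest was higher and another was not called. MRPS28 is of the first kind. Its dimmer probeset with a mean of 8.45 was higher by 0.72 (SE 0.16, adjusted p = 0.00068, limma), while its 2 bright probesets, with means of 12.16 and 12.06, differed by -0.07 and -0.06 and were not called, and its dimmest, at 2.65, lay below the tag controls. MRPL12, MRPL13 and MRPL57 had larger differences on the dimmer probeset, at 0.87, 0.79 and 0.73 against 0.74, 0.61 and 0.56 on the brighter one.

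Compared with the same 7 healthy dogs, the naïve samples had 47 members higher and 0 lower in limma, with a median difference of 0.35. Of all genes, 19.8% were higher and 15% lower. Without sample 5 the naïve count was 53, with 21.9% of all genes higher. The relapsed samples had 28 higher and 0 lower in limma, with a median of 0.30, beside 11.9% of all genes higher and 10.6% lower. The median SE of a member was 0.11 with 7 relapsed and 0.10 with 16 naïve samples. With RIN as a covariate the naïve count was 7, beside 2.2% of all genes, and the relapsed count 2, beside 0.708% of all genes. Leaving out healthy dog 1, 2 or 3 brought the relapsed count to 19, 18 or 19, with 10.1%, 8.96% or 9.7% of all genes higher. By subunit, the naïve samples had 10 of 13 and 5 of 10 small-subunit genes higher (bacterial counterpart and mitochondria-specific), and 20 of 29 and 11 of 20 large-subunit genes. In relapsed samples these counts were 6 of 13, 2 of 10, 16 of 29 and 3 of 20. Both comparisons use the same healthy dogs and are therefore not independent.

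Genes without overlap were few in either comparison. MRPL41, MRPL50 and MRPS7 lay in all naïve samples above all healthy dogs, which held for 1.75% of all genes. MRPS7, the counterpart of a protein that nucleates assembly of the bacterial small-subunit head, ran from 11.18 to 11.79 in naïve samples and from 10.74 to 11.15 in healthy dogs. MRPL28, MRPL50 and MRPS14 did so in all relapsed samples, which held for 2.55% of all genes. MRPS14 ran from 12.28 to 12.75 in relapsed samples and from 11.66 to 12.26 in healthy dogs, with healthy dog 1 well below the others.

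Relapsed and naïve DLBCL were compared on the 7 and 16 arrays. No member was called in either direction (0 of 73 in limma, with 1 at an unadjusted p under 0.05), and nor was any gene of the array (0%, with 4.85% at an unadjusted p under 0.05). The median difference was -0.07, beside -0.01 over all genes, and 64 of 73 members lay below 0, as did 55.3% of all genes. Without sample 18 the median difference of the members was -0.01, without sample 24 it was -0.11, and without naïve sample 5 it was -0.09. Marker lists moved beside it, with none of their genes called. All 11 mitosis genes were below 0 (median -0.33), and 9 of 10 stromal and endothelial genes were above 0 (median 0.64). Macrophage genes were above 0 in 11 of 12 (median 0.19), B-cell genes in 7 of 9 (median 0.39) and T-cell genes in 6 of 13 (median -0.04). The mean of the mitosis list was 10.24 ± 0.67 in relapsed samples (SD over 7) and 10.60 ± 0.41 in naïve samples (SD over 16), and the mean of the stromal list was 11.05 ± 0.43 in relapsed samples and 10.39 ± 0.68 in naïve samples. Their part in the shift of the members was not tested. The median SE of a member was 0.11.

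The member with the smallest unadjusted p was MRPL41. Its levels were 8.87, 8.88, 8.66, 8.80, 8.57, 8.47 and 8.40 in relapsed samples 3, 4, 9, 12, 13, 18 and 24, and 8.72 to 9.29 with a median of 8.91 in naïve samples. All relapsed samples lay below the naïve median and 4 of them below the naïve range, and the difference was -0.31 (SE 0.08, unadjusted p = 0.0012, adjusted p = 0.99, limma). MRPS10 (-0.22, SE 0.16) and MRPS28 (-0.21, SE 0.12) followed on the lower side. On the higher side stood MRPS33 (0.30, SE 0.22), MRPL28 (0.10, SE 0.13) and MRPS14 (0.08, SE 0.10). MRPS33 spanned almost the whole range of levels in both groups, with 7.95, 8.72, 8.13, 7.07, 8.43, 8.07 and 8.61 in relapsed samples 3, 4, 9, 12, 13, 18 and 24, and 7.07 to 8.68 with a median of 7.69 in naïve samples.

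The mean of the members varied among relapsed samples and is given by time since treatment: 11.49 at 13 days (sample 24), 11.17 at 32 days (sample 9), 10.97 at 76 days (sample 18), 11.35 at 82 days (sample 3), 11.34 at 123 days (sample 13), 11.30 at 152 days (sample 12) and 11.53 at 672 days (sample 4). Naïve samples ran from 11.06 to 11.53, so all relapsed samples but sample 18 lay within the naïve range. In the dog sampled on both occasions, 19 of 73 members were higher in the relapsed sample 12 than in the naïve sample 11, and the median difference was -0.13, beside 0.01 over all genes. The differences of single genes in this dog ran from -0.80 to 0.31, and 1 pair of arrays gives no error.

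Within the DLBCL dogs the levels of most members varied together. Over the 22 dogs the median Pearson correlation of the 2628 pairs of members was 0.38, and 33.9% of pairs were above 0.5, beside a median of 0.006 and 2.94% for pairs of all genes. Without samples 5 and 18 the median was 0.26, and over the 7 healthy dogs it was 0.16, beside 0.02 for pairs of all genes. These are descriptions, since all pairs share the same arrays and their normalization. MRPS12, the counterpart of a protein of the bacterial decoding centre, followed the mean of the other members most closely (r = 0.95 over 22 dogs), ahead of MRPS25 (0.92) and MRPL20 (0.90). MRPL20 had levels of 13.02, 13.44 and 13.73 in DLBCL dogs and of 12.76, 13.07 and 13.20 in healthy dogs, a difference of 0.38 (SE 0.08). MRPL53 (r = -0.11), MRPS33 (-0.03), MRPL24 (0.00) and MRPL14 (0.01) did not follow the others. The SD over DLBCL dogs was larger than over healthy dogs in 64 of 73 members, with medians of 0.23 and 0.14, and in 76.9% of all genes.

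The rest of the mitochondrial expression machinery was examined in the same fit, in which 19.9% of all genes were higher and 14.9% lower. The list of mitoribosomal proteins that carry other names was higher in 5 of 6 genes, with a median difference of 0.33. Among them were GADD45GIP1 (0.58, SE 0.11), PTCD3 (0.46, SE 0.11) and AURKAIP1 (0.31, SE 0.10). The 5 also include OXA1L (0.20, SE 0.07), a membrane insertase that binds the ribosome and is not itself a ribosomal protein. Mitochondrial transcription and RNA processing genes were higher in 7 of 12, with a median of 0.45, led by LRPPRC, which stabilises mitochondrial messages (0.72, SE 0.12), the DNA-packaging transcription factor TFAM (0.67, SE 0.14) and the RNA-degrading PNPT1 (0.65, SE 0.11). Assembly factors were higher in 11 of 14, with a median of 0.39, among them the methyltransferases TRMT61B (0.73, SE 0.12) and NSUN4 (0.57, SE 0.13) and the GTPase NOA1 (0.53, SE 0.16).

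Translation factors were higher in 5 of 12, with a median of 0.21, led by the release factor MTRF1 (0.79, SE 0.17), the recycling factor MRRF (0.70, SE 0.14) and the elongation factor TUFM (0.68, SE 0.14). Mitochondrial aminoacyl-tRNA synthetases, which charge the tRNAs, split: 7 of 15 were higher and 2 lower, with a median of 0.19. CARS2 (0.94, SE 0.14), YARS2 (0.69, SE 0.17) and WARS2 (0.55, SE 0.17) rose most, and TARS2 (-0.53, SE 0.15) and HARS2 (-0.46, SE 0.10) were lower. Nuclear genes of the respiratory chain, among which no gene of ATP synthase was measured here, were higher in 24 of 34 and lower in 0, with a median of 0.31, such as NDUFB5 of complex I (0.86, SE 0.10), CYC1 of complex III (0.79, SE 0.16) and NDUFS7 of complex I (0.59, SE 0.09).

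Of the 51 measured genes of the cytosolic ribosome, 9 were higher and 0 lower. The 9 make up 17.6% of the list, beside 19.9% of all genes, with a median difference of 0.02, which is below the median of all genes. The largest differences were those of RPL22 (0.97, SE 0.19), RPL26 (0.86, SE 0.18) and RPS10 (0.55, SE 0.09). The probesets of the cytosolic list had the highest median level of the lists, at 14.60 beside 15.49 for the highest value on any array. RPL22, RPL26 and RPS10 lay well below that median level in both groups. RPL37A, also among the 9, had means of 3.39 in DLBCL and 3.15 in healthy dogs, within the range of the tag controls. Most genes of the list lay near it, and whether differences in this list depended on level was not tested. The difference between this list and the mitochondrial one was not tested.

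**Figure D4:**
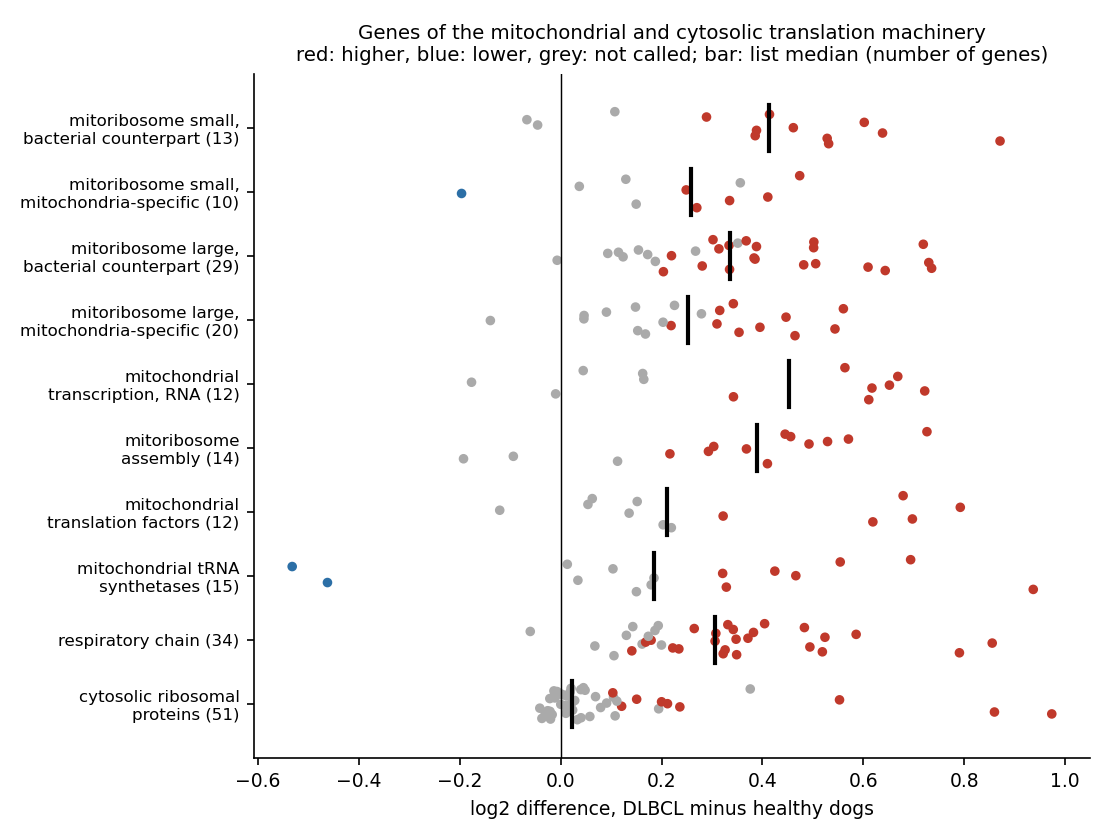
Log2 differences (DLBCL minus healthy dogs) of the genes of each list, 1 point a gene, with list medians as bars and the number of genes in parentheses. Most points of the mitochondrial lists lie to the right of 0, and most cytosolic ribosomal proteins lie close to 0.

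Over the 22 DLBCL dogs, the mean of the members went with the means of the related lists. Pearson's r was 0.94 with mitochondrial transcription and RNA genes, 0.87 with respiratory chain genes, 0.85 with assembly factors, 0.83 with tRNA synthetases and 0.73 with translation factors, and Spearman's rho was 0.88, 0.84, 0.73, 0.68 and 0.47 in the same order. Without the 2 dogs farthest from the median of each list, r was 0.88, 0.78, 0.64, 0.59 and 0.33. With cytosolic ribosomal proteins r was 0.31 and rho -0.09, and without the 2 farthest dogs r was -0.42. With MYC, a transcription factor that drives ribosome production, r was 0.23 and rho 0.03. With RIN r was 0.28 and rho 0.16, and with age r was -0.31 and rho -0.25. No test was run on the 14 relations, those with marker lists below included, which share the arrays and their normalization.

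Markers of other cell types and of mitosis also differed between the groups, in a fit with 19.9% of all genes higher and 14.9% lower. Of 11 measured mitosis genes 10 were higher in DLBCL, the mean of the list running from 9.34 to 11.26 in DLBCL dogs and from 8.00 to 10.07 in healthy dogs. Over DLBCL dogs it went with the mean of the members at r = 0.72 and rho = 0.66, and at r = 0.54 without the 2 farthest dogs. T-cell genes were lower in 11 of 13, with a list mean of 7.26 to 9.51 in DLBCL dogs and 9.92 to 11.04 in healthy dogs. B-cell genes were higher in 2 of 9, with a list mean of 8.03 to 11.49 in DLBCL dogs (10.44 to 11.49 without sample 5) and 10.01 to 10.75 in healthy dogs. Macrophage genes were lower in 4 of 12, with a list mean of 8.93 to 11.69 in DLBCL dogs (to 11.46 without sample 5) and 9.97 to 12.33 in healthy dogs. Stromal and endothelial genes were higher in 1 of 10 and lower in 3, with a list mean of 8.98 to 11.66 in DLBCL dogs and 9.98 to 11.49 in healthy dogs. Over the 22 DLBCL dogs, r with the mean of the members was 0.10 for T-cell, 0.36 for B-cell, -0.30 for macrophage and -0.36 for stromal genes, and 0.07, -0.03, -0.08 and -0.42 without the 2 farthest dogs of each list. Their part in the differences of the members was not tested.

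**Figure D5:**
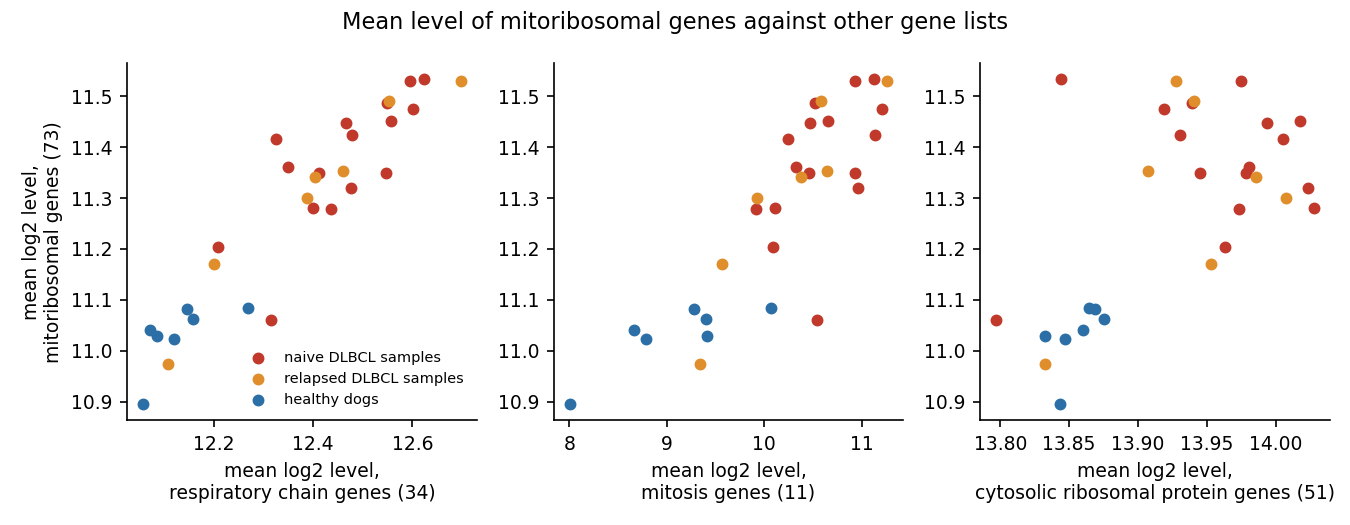
Mean log2 level of the 73 genes against the mean log2 level of respiratory chain, mitosis and cytosolic ribosomal protein genes, 1 point a DLBCL sample or healthy dog. The points of DLBCL samples climb with respiratory chain (r = 0.87 over 22 dogs) and mitosis genes (r = 0.72).

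RNA integrity moved with the groups, so the same differences were read beside it. With RIN as a covariate 68 of 73 members lay above 0, and the median of all genes was 0.08. The member called higher in that fit was MRPL13 (0.98, SE 0.24, adjusted p = 0.027, limma). Of the 46 genes called higher without the covariate, 41 had a difference with it of at least 0.5 times that without it. The 46 were chosen by the fit without the covariate, and the median SE of the members with it was 0.21. The same share over all genes was not counted, so no conclusion is drawn from the 41. Healthy dog 1, the 1 healthy dog with RIN near that of the tumours, had the lowest mean of the members among healthy dogs, 10.90. Set against this dog alone, the mean of the DLBCL dogs was higher in 70 of 73 members, beside 61.8% of all genes. The median difference was 0.44, beside 0.10 over all genes. That dog also had the highest macrophage and the lowest T-cell and mitosis list means of the healthy dogs, at 12.33, 9.92 and 8.00. Array days came from numbered file names, which do not say which arrays are healthy, so the healthy arrays were given no day. A batch between DLBCL and healthy nodes was not tested.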

How the data were processed

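RNA was extracted in batches described as balanced and random, amplified, labelled and hybridised to 33 arrays. The authors normalised the arrays with RMA, for which the submitters' processing notes name Affymetrix Expression Console, and deposited 1 log2 value per probeset and array. Its version is not given in the sources used here. RMA equalises the distributions of the arrays, so differences in the total RNA of a cell are not visible. Values were used as deposited, and 0 sample columns were left unused. The number of arrays limits the precision.

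Symbols came from the platform annotation (29264 probesets with 1, 439 with several, 13332 unnamed here). Groups came from the labels, and arrays of 1 case were averaged except in relapsed against naïve.

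Differences were tested with limma 3.58.1 in R 4.3.3 on log2 values. P-values were adjusted across 43035 probesets by Benjamini-Hochberg. The procedure was also run on simulated data with independent errors and the same spread in both groups. That simulation held no correlation between genes and no RIN difference, so it does not speak to either. Tables and plots used Python 3.11.15, numpy 2.4.6, pandas 2.3.3 and matplotlib 3.10.9.

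Genes named are the 10 largest rises and up to 8 falls among called members, members without overlap, the 3 of highest and lowest level, of largest and smallest SD and of largest difference either way between relapsed and naïve samples, those with opposite probesets, and up to 3 called genes per other list. MRPS7, MRPS12, MRPS25, MRPL14, MRPL24, MRPL53, TARS2, HARS2, MS4A1 and MYC were named after their values were seen. MRPS18A and MRPS30 were named for the list they stand in. Members and lists were chosen with earlier results of these data known.

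Alternatives were each array as its own sample, a random block for the dog, RIN as a covariate, a filter on dim probesets, other centring, the mean of a gene's probesets, the methods' ANOVA, leaving out samples, and blocks for sample number and array day, which is known for 18 DLBCL arrays from their file names.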

Additional observations from a re-analysis of the deposited data

Results flagged for a closer look

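A sample was looked for that stood far from the other 6 of its group in 50 groups, the relapsed samples and the healthy dogs for each of the 24 named genes and the mean of the members. Such a sample was found in 5 groups, and in each it was healthy dog 1 or relapsed sample 18. Chance gives about 1 in 20 groups, but these groups share dogs, so the flags are not independent. Healthy dog 1 was the lowest of the healthy dogs in MRPL13 (11.23, the others 11.59 to 11.76), in MRPL20 (12.76, the others 13.06 to 13.20), in MRPS14 (11.66, the others 12.06 to 12.26) and in the mean of the members (10.90, the others 11.02 to 11.08). It was the lowest healthy dog in 32 of the 73 members. Relapsed sample 18 was the lowest of the relapsed samples in MRPL57 (12.04, the others 12.46 to 12.68).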

How the results depend on the processing

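Against 46 higher and 1 lower in DLBCL versus healthy dogs, the alternatives gave 58 and 1 with 33 arrays as separate samples or the methods' ANOVA, 48 and 1 with the dog as a random block, 47 and 1 with the filter or median centring, 35 and 1 after centring on cytosolic ribosomal proteins, 48 and 0 with the mean of a gene's probesets, and 1 and 0 with RIN as a covariate. Of all genes, 3013 were higher in the main fit, 4137 with separate arrays and 4190 with the ANOVA. The random block gave 2966, the filter 2932, median centring 3332, cytosolic centring 1796, the mean of probesets 3581 and RIN 101. Leaving out each healthy dog gave 43 to 45 members higher and 0 to 1 lower, with 2570 to 2883 of all genes higher. The naïve count of 47 and 0 became 7 higher with RIN, and 1 lower in the fit over all 3 groups and with the filter, and leaving out each healthy dog gave 43 to 46 higher and 0 to 1 lower. The relapsed count of 28 and 0 became 2 higher with RIN and 1 lower in the fit over all 3 groups. It was 18 to 25 higher and 0 to 1 lower when a healthy dog was left out. Over the same omissions, all genes higher ran from 2589 to 2885 for naïve and from 1354 to 1610 for relapsed samples. Relapsed against naïve gave 0 and 0 in every fit run, including array day as a block (18 arrays, median -0.07) and within array days 1 and 2 (medians -0.07 and -0.07), and the random block for the dog could not be fitted there and was not run.

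Centring on cytosolic ribosomal proteins moved the median of all genes to -0.03 and turned MRPL52 (-0.046) and MRPL54 (-0.0015), and the mean of probesets turned MRPS26 (0.12) and MRPS28 (0.14). Of the 24 named genes, 15 lost their call with RIN as a covariate. The sample numbers shared by DLBCL and healthy arrays do not pair dogs (correlations of deviations -0.17 to 0.15 over 9 numbers). The replicate block gave 41 higher and 0 lower, against 49 and 1 without the block on the same 18 arrays. Of all genes, 2948 were higher with the block and 3341 without it. The cause of these changes was not tested. The fits without sample 5, within array days and without a block on the same arrays were chosen after seeing the data.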
